A study of Mus musculus with 18 samples.

Results

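The genes of MHC class I antigen presentation were followed in brain endothelial cells of mice with and without endothelial Pdcd10, kept in low or normal oxygen. The 10 genes were taken by name from the 57010 genes of the count table. They are the heavy chain genes H2-K1, H2-D1 and H2-T23, the light chain gene B2m, the peptide transport and loading genes Tap1, Tap2 and Tapbp, the immunoproteasome genes Psmb8 and Psmb9, and the regulator gene Nlrc5. All 10 had a row in the table, and all 10 were among the 17531 genes with enough counts to be tested. KO mice carried Slco1c1-iCreERT2, a tamoxifen-regulated Cre of brain endothelium, with Pdcd10fl/fl and Aldh1l1-EGFP/Rpl10a. Flox mice were littermates with Pdcd10fl/fl and Aldh1l1-EGFP/Rpl10a but no Cre, so all groups shared the floxed alleles and the astrocyte reporter. Pups were given 50 µg of 4-hydroxy-tamoxifen into the stomach at postnatal day 1. The labels also name uninjected animals with Cre as controls, without saying which libraries, if any, came from them. Brain endothelial cells were taken at postnatal day 57. Hypoxia was 12% oxygen for 7 days and normoxia was 21% oxygen. There were 5 hypoxia KO, 5 normoxia KO, 4 hypoxia flox and 4 normoxia flox libraries. The strain background and sex of the animals, the number of animals per library and the way the cells were isolated are not given in the sources used here. Sex-linked transcripts in the counts are described below.

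MHC class I molecules show peptides from inside a cell to CD8 T cells. Proteasomes cut proteins into peptides, the TAP transporter moves the peptides into the endoplasmic reticulum, tapasin helps to load them, and the heavy chain with beta-2 microglobulin carries them to the surface. Interferon gamma raises these genes together, largely through IRF1 and NLRC5, and NF-kB also acts on heavy chain promoters. Pdcd10 encodes CCM3, and its loss from brain endothelium gives cerebral cavernous malformations.

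The promoters of the genes that rose are shown first, because the regulators named above act there. A further window, at Tap1, is shown because it serves a pair of genes. Each is a window of 300 bases, from 250 before to 50 after a start listed by RefSeq for GRCm38.p6, written 5′ to 3′ along the gene's strand. H2-K1 has 2 listed starts, and the first listed was used for its window, its matches and its identity to H2-D1. H2-K1 lies on the minus strand (chr17:34000298-34000597), H2-D1 on the plus strand (chr17:35262844-35263143), H2-T23 on the minus strand (chr17:36032652-36032951), B2m on the plus strand (chr2:122147437-122147736) and Tap1 on the plus strand (chr17:34187306-34187605). Capitals mark matches, on either strand, to a kappa-B core (GGGNNTTCC), an interferon response core (GAANNGAAA), a cyclic AMP response core (TGACG) or a CCAAT box (CCAAT), none of which overlap here.
H2-K1 promoter window: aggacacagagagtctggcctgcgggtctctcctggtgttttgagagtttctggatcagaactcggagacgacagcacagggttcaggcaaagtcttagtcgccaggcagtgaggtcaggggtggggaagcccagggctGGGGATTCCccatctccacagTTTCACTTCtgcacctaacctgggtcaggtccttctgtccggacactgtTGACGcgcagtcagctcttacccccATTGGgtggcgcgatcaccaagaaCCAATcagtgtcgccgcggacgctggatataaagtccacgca
H2-D1 promoter window: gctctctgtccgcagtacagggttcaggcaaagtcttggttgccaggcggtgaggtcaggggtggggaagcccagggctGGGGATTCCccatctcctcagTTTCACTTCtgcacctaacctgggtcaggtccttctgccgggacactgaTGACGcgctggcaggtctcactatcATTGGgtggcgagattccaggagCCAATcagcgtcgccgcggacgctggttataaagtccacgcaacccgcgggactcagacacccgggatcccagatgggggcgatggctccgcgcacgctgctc
H2-T23 promoter window: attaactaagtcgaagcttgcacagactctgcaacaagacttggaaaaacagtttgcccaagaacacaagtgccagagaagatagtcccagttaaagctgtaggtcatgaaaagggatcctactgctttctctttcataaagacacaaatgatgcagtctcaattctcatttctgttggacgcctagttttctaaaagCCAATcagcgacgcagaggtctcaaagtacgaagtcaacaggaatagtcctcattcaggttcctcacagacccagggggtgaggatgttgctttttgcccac
B2m promoter window: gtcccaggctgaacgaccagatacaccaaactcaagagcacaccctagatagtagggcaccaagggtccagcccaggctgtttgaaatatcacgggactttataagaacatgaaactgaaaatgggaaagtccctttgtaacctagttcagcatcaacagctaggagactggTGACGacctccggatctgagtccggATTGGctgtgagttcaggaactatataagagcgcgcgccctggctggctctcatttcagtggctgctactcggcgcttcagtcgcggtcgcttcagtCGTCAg
Tap1 promoter window: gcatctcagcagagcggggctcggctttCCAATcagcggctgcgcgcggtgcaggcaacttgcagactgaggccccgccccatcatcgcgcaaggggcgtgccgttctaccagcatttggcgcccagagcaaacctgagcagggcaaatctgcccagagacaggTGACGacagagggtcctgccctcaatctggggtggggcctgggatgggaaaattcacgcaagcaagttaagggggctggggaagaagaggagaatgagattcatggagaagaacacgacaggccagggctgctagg

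Of the 10 genes, 8 had a window in the RefSeq table, and Tap2 and Nlrc5 are named only. In the exact 9-letter forms given above, the kappa-B core and the interferon response core were found in 2 of the 8 windows. These were H2-K1 and H2-D1, against 5.82% and 7.52% of all 32851 promoter windows. Forms with wider spacing between the parts of a core were not counted over the 8 windows or over all windows. Such forms can be read in lower case in the printed windows, both cores in B2m and the interferon response core in H2-T23. They have no share over all windows to stand beside. The CCAAT box was found in 7 of 8 windows, against 37.4% of all windows. The TGACG core was found in 5 of 8, against 20.8%. A gamma-activated core (TTCNNNGAA) was found in Psmb8 alone among the 8, against 8.30% of all windows. The H2-K1 and H2-D1 windows were 88.3% identical over 239 aligned bases. The Tap1 and Psmb9 starts lie 226 bases apart on opposite strands, so their windows share 275 bases, and the capitals in the Tap1 window also stand in that of Psmb9. A match is a run of letters, lower case does not show that a site is absent, and binding was not measured. On the chromosomes, 8 of the 10 genes lie on chromosome 17, with Psmb9, Tap1, Psmb8 and Tap2 next to each other, B2m on chromosome 2 and Nlrc5 on chromosome 8.

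Library totals ran from 17931197 to 31193333 counts. Levels are given as CPM, counts relative to a library's total scaled by the TMM method. Pdcd10 had 18.2 to 25.3 CPM in hypoxia KO against 37.7 to 60.9 CPM in hypoxia flox, and 16.3 to 20.1 CPM in normoxia KO against 30.6 to 45.0 CPM in normoxia flox, so every library fitted its label. The summed level of 13 endothelial markers was 20807 to 23689 CPM in hypoxia KO against 22008 to 26479 CPM in hypoxia flox, and 21165 to 23520 CPM in normoxia KO against 18077 to 27799 CPM in normoxia flox. Of the 13, Pecam1 rose and Slco1a4 fell in KO at both oxygen levels, and Flt1 and Mfsd2a fell in normoxia KO. A neuron marker sum of 1452 CPM in normoxia KO 4 and 2572 CPM in normoxia flox 4 set these libraries apart from the others. Hypoxia KO 4 stood apart in the class I genes and in immune cell markers. Its Y-linked genes summed to 226 CPM, against 0 to 0.916 CPM in the other hypoxia KO libraries. Values of the 10 genes in hypoxia are given with and without it. Y-linked transcripts were present in all 4 hypoxia flox libraries, so sex and genotype nearly coincide in hypoxia. Without hypoxia KO 4 they coincide fully, so the hypoxia values given without it cannot tell genotype from sex. In normoxia, flox 3, flox 4 and KO 4 had both Y-linked transcripts (127, 145 and 19.5 CPM summed) and Xist, a transcript of female cells (478, 246 and 306 CPM).

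Leukocyte markers were higher in hypoxia KO libraries, and in normoxia KO for part of them. The summed level of 8 pan-leukocyte genes was 160 to 349 CPM in hypoxia KO against 148 to 157 CPM in hypoxia flox, and 172 to 190 CPM in normoxia KO against 129 to 152 CPM in normoxia flox. None of the 8 genes was at 0 in any library. Ptprc, the gene of the leukocyte surface protein CD45, had 5.87, 27.2, 24.4, 49.6 and 24.5 CPM in hypoxia KO 1 to 5 against 1.42 to 8.30 CPM in hypoxia flox. In hypoxia KO 6 of the 8 genes were higher, while 11.4% of all genes were, and 5 were higher without hypoxia KO 4. The share of all genes higher in that fit is given below with the interferon-stimulated genes. In normoxia KO 2 of the 8 were higher, Lcp1 and Arhgdib, while 9.54% of all genes were. Ptprc, Cd53, Coro1a, Rac2 and Cd52 had positive values there that did not pass, and Laptm5 was at -0.64. Lymphocyte markers summed to 10.7 to 38.3 CPM in hypoxia KO against 3.58 to 14.5 CPM in hypoxia flox, and to 8.12 to 24.2 CPM in normoxia KO against 2.69 to 14.9 CPM in normoxia flox. Microglia and macrophage markers summed to 56.3 to 163 CPM in hypoxia KO against 27.5 to 53.1 CPM in hypoxia flox, with 3 of 14 higher and 1 lower, and to 46.0 to 153 CPM in normoxia KO against 29.7 to 229 CPM in normoxia flox, with 1 higher and 1 lower. The median log2 fold change of the microglia and macrophage list was 1.90 in hypoxia and -0.66 in normoxia. Of 10 mural cell genes, 4 were higher and 3 lower in hypoxia KO (Kcnj8 4.03 and Acta2 -1.65 on the log2 scale). In normoxia KO 2 mural genes were higher and 4 lower. Of all genes, 22.3% passed in hypoxia and 16.6% in normoxia. Of 14 immediate early genes none passed, at medians of 1.31 in hypoxia and 0.89 in normoxia. The part of these other cells and genes in the class I results was not tested beyond the fits named here. Leukocytes also express class I genes, and in bulk RNA more cells of a type and more RNA per cell cannot be told apart. The fits with a leukocyte score are given beside the results below.

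**Figure D1:**
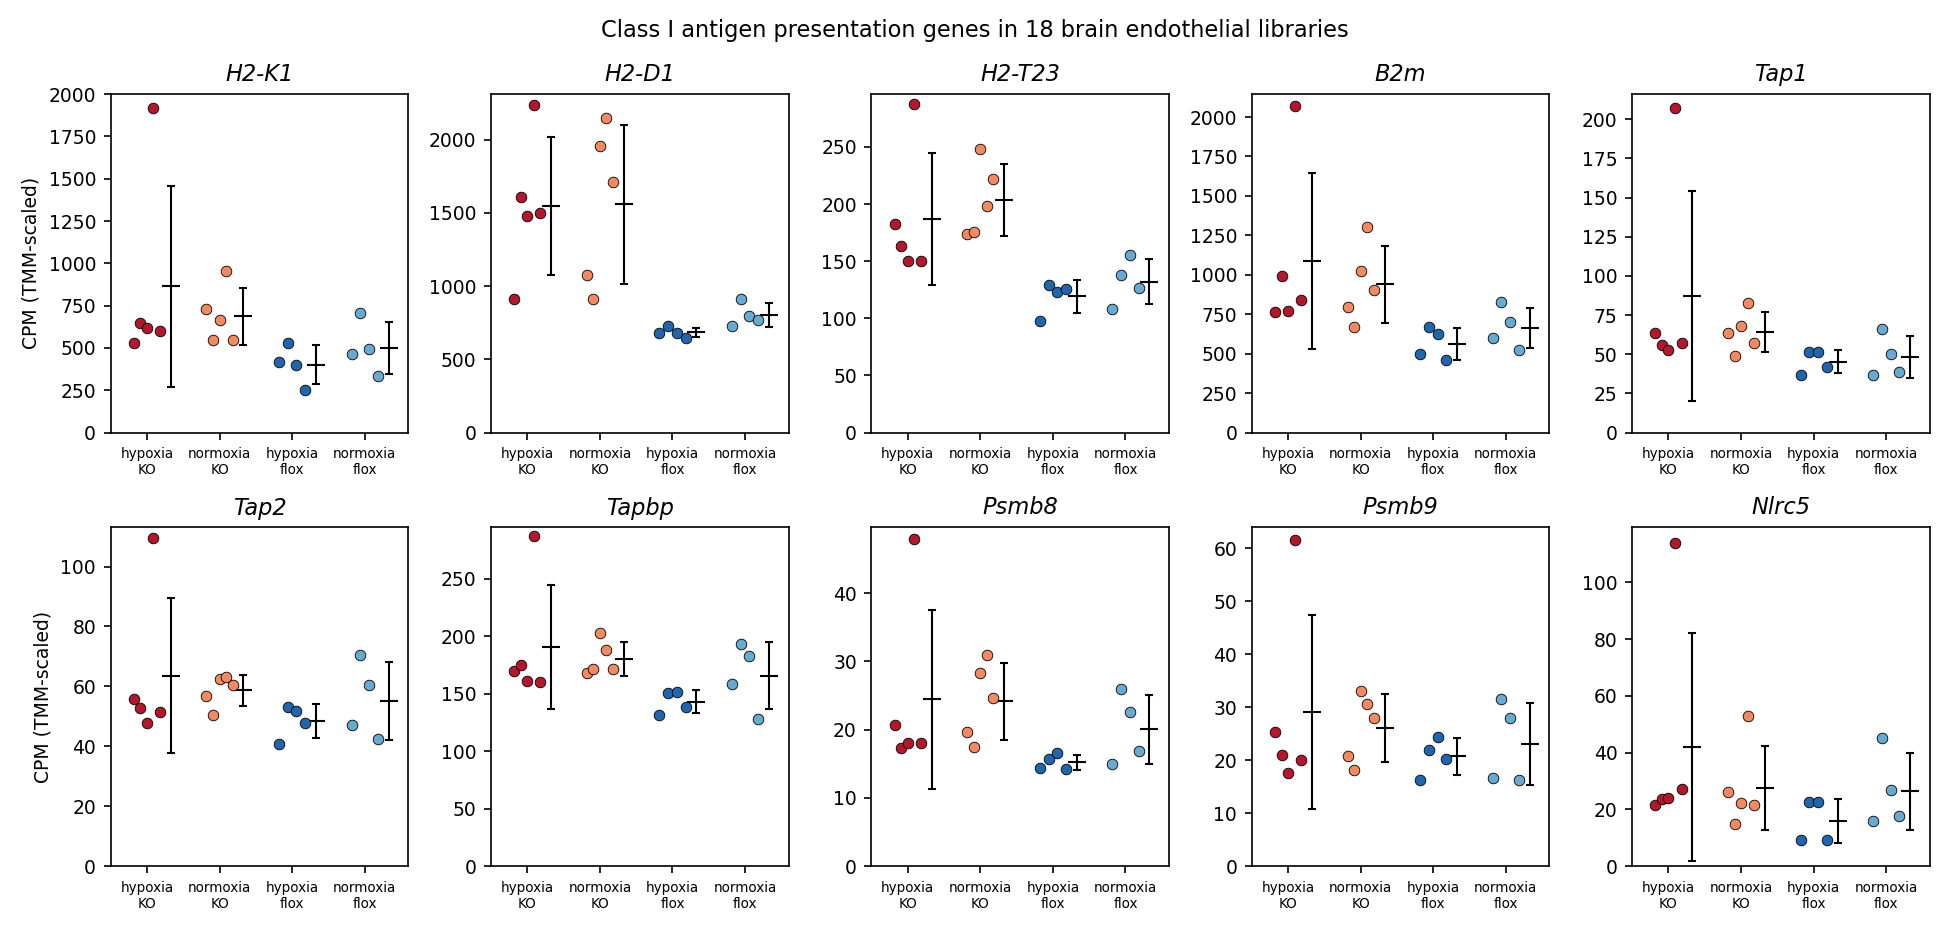
Level of each of the 10 genes in the 18 libraries, in CPM on a linear axis from 0, by group. Points are libraries and the bar is the mean ± SD. Hypoxia KO 4 is the highest library in every panel (1921 CPM for H2-K1, 114 CPM for Nlrc5), and H2-T23 has no overlap between KO and flox at either oxygen level.

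In hypoxia, H2-D1, H2-K1, H2-T23 and B2m rose in KO, between 1.57-fold and 2.26-fold. In normoxia, H2-D1 and H2-T23 rose, by 1.94-fold and 1.54-fold, and H2-K1 did not pass. Neither of the 2 passed once the replicate numbers, taken as pairs, were blocked. The transporter, tapasin, immunoproteasome and Nlrc5 genes did not pass the test in either comparison. Without hypoxia KO 4, H2-D1 and H2-T23 were the members that passed in hypoxia.

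In hypoxia 4 of the 10 genes passed, all higher, while 22.3% of all tested genes passed and 11.4% were higher. The median log2 fold change of the 10 was 0.81, against -0.00 over all tested genes. Groups were apart, every KO library above every flox library, for 6 of the 10 (H2-D1, H2-T23, B2m, Tap1, Tapbp and Psmb8), against 12.0% of all genes. Without hypoxia KO 4, 2 of the 10 passed while 16.5% of all genes did, and the median of the 10 was 0.39. In normoxia 2 of the 10 passed, both higher, while 16.6% of all genes passed and 9.54% were higher, so the share was close to the background. The median of the 10 was 0.34, against -0.02 over all genes. H2-T23 was the 1 member with groups apart in normoxia, against 8.59% of all genes. Log2 fold changes here and below come with SE and with Benjamini-Hochberg adjusted p values over all genes, from edgeR's quasi-likelihood test.

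The normoxia replicate numbers 1, 2 and 4 were taken to pair KO with flox libraries, which the labels do not state. In a fit blocked on these numbers, none of the 10 passed in normoxia (H2-D1 0.58, adjusted p = 0.293; H2-T23 0.62, adjusted p = 0.0880), and 717 genes passed in all. With the block over all libraries none passed either (H2-D1 0.81, adjusted p = 0.0542; H2-T23 0.60, adjusted p = 0.0584).

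**Figure D2:**
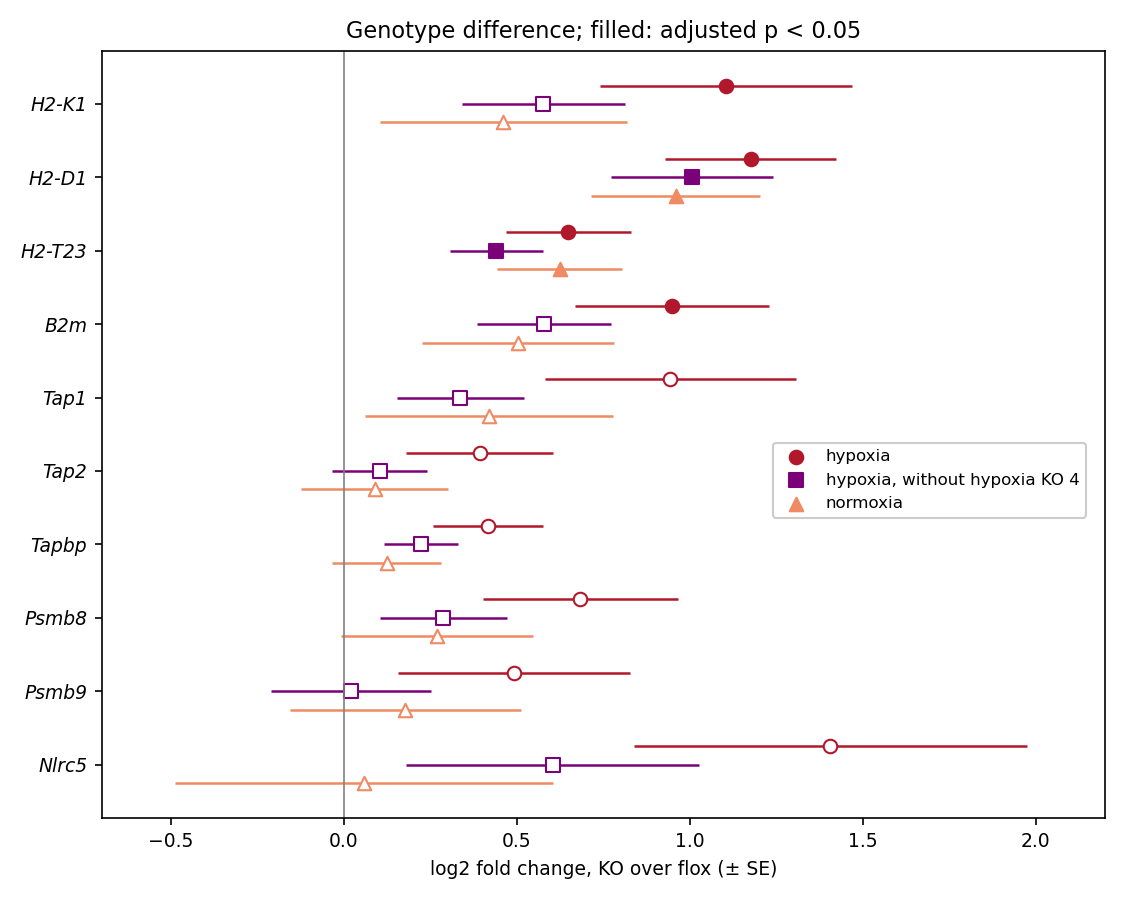
Log2 fold change of KO over flox ± SE for each gene, in hypoxia, in hypoxia without hypoxia KO 4, and in normoxia. Filled symbols passed at an adjusted p under 0.05. All values lie above 0, and those of H2-D1 (1.18, 1.01 and 0.96) and H2-T23 (0.65, 0.44 and 0.62) are the ones filled in all 3 fits.

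H2-D1, a classical heavy chain that presents peptides to CD8 T cells, had the lowest adjusted p of the 10 in both comparisons. It stood at 914, 1608, 1477, 2237 and 1497 CPM in hypoxia KO 1 to 5, against 683, 726, 683 and 647 CPM in hypoxia flox 2 to 5. The groups did not overlap, and hypoxia KO 1 was closest to flox. The log2 fold change was 1.18 ± 0.25 (adjusted p = 0.00303), and 1.01 ± 0.23 (adjusted p = 0.00850) without hypoxia KO 4. In normoxia it had 1078, 911, 1954, 2149 and 1709 CPM in KO 1, 2, 4, 5 and 6, against 729, 914, 796 and 770 CPM in flox 1 to 4. KO 2 lay just below flox 2, and KO 4, 5 and 6 lay far above all flox libraries. The log2 fold change was 0.96 ± 0.24 (adjusted p = 0.0125). Within the normoxia pairs the values were 1078 CPM in KO against 729 CPM in flox for number 1, 911 against 914 CPM for number 2, and 1954 against 770 CPM for number 4.

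The KO libraries fell into separate ranges for H2-D1. Hypoxia KO 1, normoxia KO 1 and normoxia KO 2 had 911 to 1078 CPM, and the other 7 KO libraries had 1477 to 2237 CPM. H2-Q1, the next protein-coding gene on the chromosome and a nonclassical heavy chain, was low and high in these libraries alike. It had 4.47, 15.5, 10.8, 10.2 and 10.8 CPM in hypoxia KO 1 to 5, against 4.27, 2.78, 3.37 and 3.14 CPM in hypoxia flox 2 to 5. In normoxia it had 4.84, 3.95, 14.2, 22.8 and 14.9 CPM in KO 1, 2, 4, 5 and 6, against 3.39, 5.81, 2.47 and 6.85 CPM in flox 1 to 4. H2-Q1 rose in hypoxia KO (1.61 ± 0.49, adjusted p = 0.0262, and 1.61 ± 0.52, adjusted p = 0.0465, without hypoxia KO 4). In normoxia its value was 1.39 ± 0.47 (adjusted p = 0.0550). The transcripts share sequence: 7.40% of the 50-base words of H2-D1 also stand in H2-Q1, and 14.3% stand in some other gene, so part of one gene's reads could be counted for the other. H2 alleles differ between mouse strains, and the strain of each animal is not given in the sources used here. The parts of shared reads and of H2 alleles in this pattern, and in the H2-D1 difference, were not tested.

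H2-K1, the other classical heavy chain measured, followed a different course. It had 529, 646, 619, 1921 and 602 CPM in hypoxia KO 1 to 5, against 420, 532, 400 and 254 CPM in hypoxia flox 2 to 5. The groups overlapped slightly, and hypoxia KO 4 was about 3 times the next KO library. H2-K1 rose in hypoxia KO by 1.10 ± 0.36 (adjusted p = 0.0392), but not past the threshold without hypoxia KO 4 (0.58 ± 0.24, adjusted p = 0.112). It also missed the threshold without hypoxia flox 2 (adjusted p = 0.0663), hypoxia flox 4 (adjusted p = 0.0890) or hypoxia flox 5 (adjusted p = 0.125). In normoxia it averaged 687 ± 168 CPM in KO (SD, n = 5) and 499 ± 153 CPM in flox (SD, n = 4), with a value of 0.46 ± 0.36 (adjusted p = 0.442). The normoxia groups overlapped widely, from 544 to 952 CPM in KO against 335 to 704 CPM in flox. The ratio of H2-K1 to H2-D1 CPM ran from 0.401 to 0.859 in hypoxia KO against 0.393 to 0.733 in hypoxia flox, and from 0.319 to 0.677 in normoxia KO against 0.435 to 0.770 in normoxia flox.

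**Figure D3:**
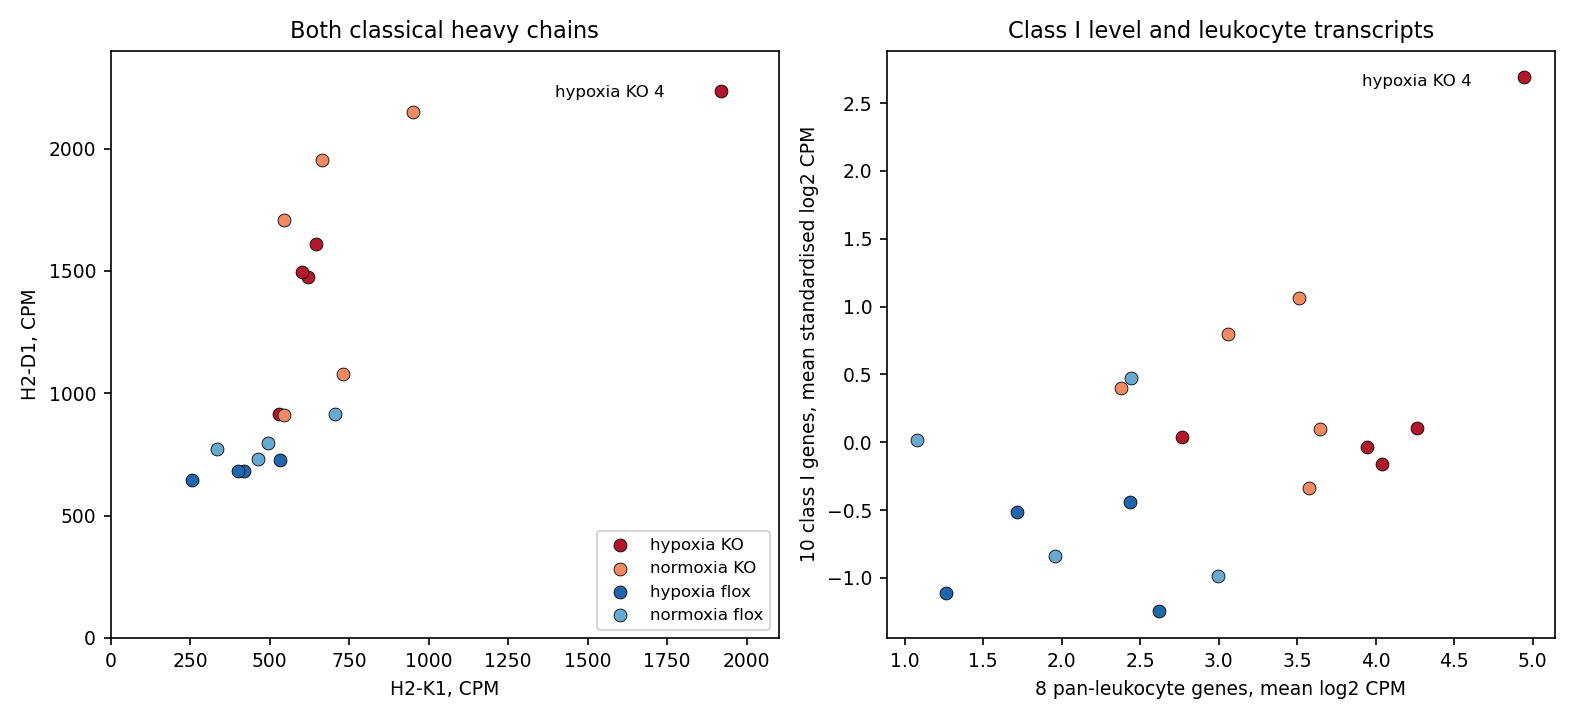
Left, H2-D1 against H2-K1 in CPM, 1 point per library. Right, the mean standardised log2 CPM of the 10 class I genes against the mean log2 CPM of 8 pan-leukocyte genes. On the left, 3 KO libraries lie at 911 to 1078 CPM of H2-D1, near the flox libraries, and 7 lie at 1477 CPM or more; hypoxia KO 4 is highest on both axes of both panels.

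H2-T23 encodes the heavy chain Qa-1, a nonclassical molecule that engages the receptor NKG2A on natural killer and T cells. It had 183, 164, 150, 287 and 150 CPM in hypoxia KO 1 to 5, against 97.9, 129, 123 and 126 CPM in hypoxia flox 2 to 5. In normoxia it had 174, 175, 249, 199 and 222 CPM in KO 1, 2, 4, 5 and 6, against 108, 138, 155 and 127 CPM in flox 1 to 4. The lowest KO library was above the highest flox library at both oxygen levels. H2-T23 rose by 0.65 ± 0.18 in hypoxia KO (adjusted p = 0.0169), by 0.44 ± 0.13 without hypoxia KO 4 (adjusted p = 0.0342), and by 0.62 ± 0.18 in normoxia KO (adjusted p = 0.0255). It was higher in KO in all 3 normoxia pairs. The normoxia call was lost without the neuron-marker libraries (0.49, adjusted p = 0.106), as was that of H2-D1 (0.81, adjusted p = 0.0588). The H2-T23 call was also lost when normoxia flox 1 was left out (adjusted p = 0.0861), when flox 2 was (adjusted p = 0.0544) and when KO 6 was (adjusted p = 0.0568). Of its 50-base words, 15.0% stand in other genes of the family.

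B2m encodes beta-2 microglobulin, the light chain shared by all class I molecules. It had 761, 990, 772, 2069 and 839 CPM in hypoxia KO 1 to 5, against 498, 671, 625 and 457 CPM in hypoxia flox 2 to 5. Every hypoxia KO library lay above every hypoxia flox library. B2m rose by 0.95 ± 0.28 (adjusted p = 0.0232), and had 0.58 ± 0.19 (adjusted p = 0.0528) without hypoxia KO 4. Without hypoxia flox 2 or hypoxia flox 5 its adjusted p was 0.0547 or 0.0767. In normoxia it had 794, 668, 1023, 1305 and 906 CPM in KO 1, 2, 4, 5 and 6, against 602, 825, 699 and 525 CPM in flox 1 to 4. These groups overlapped, and the value was 0.50 ± 0.28 (adjusted p = 0.25). None of its 50-base words stands in another gene.

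Tap1 and Tap2 encode the subunits of the peptide transporter. Tap1 had 63.8, 55.6, 52.8, 207 and 56.9 CPM in hypoxia KO 1 to 5, against 36.8, 51.4, 51.7 and 41.6 CPM in hypoxia flox 2 to 5. The groups were apart, by a margin of under 2 CPM, with hypoxia KO 4 far above the rest. Its value was 0.94 ± 0.36 (adjusted p = 0.0741), or 0.34 ± 0.18 without hypoxia KO 4 (adjusted p = 0.243), and 0.42 ± 0.36 in normoxia (adjusted p = 0.496). Tap2 ranged from 47.8 to 110 CPM in hypoxia KO against 40.8 to 53.2 CPM in hypoxia flox, and from 50.3 to 63.1 CPM in normoxia KO against 42.3 to 70.5 CPM in normoxia flox. Its values were 0.39 ± 0.21 in hypoxia (adjusted p = 0.209), 0.10 ± 0.14 there without hypoxia KO 4 (adjusted p = 0.677), and 0.09 ± 0.21 in normoxia (adjusted p = 0.820). The ratio of Tap1 to Tap2 CPM did not overlap between genotypes: it was 1.05 to 1.89 in hypoxia KO against 0.870 to 0.996 in hypoxia flox, and 0.952 to 1.31 in normoxia KO against 0.780 to 0.936 in normoxia flox. This ratio was not tested.

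Tapbp encodes tapasin, which bridges the transporter and the empty heavy chain. It had 160 to 287 CPM in hypoxia KO against 131 to 151 CPM in hypoxia flox, with groups apart, and 168 to 203 CPM in normoxia KO against 128 to 194 CPM in normoxia flox, with overlap. The values were 0.42 ± 0.16 (adjusted p = 0.0698) in hypoxia, 0.22 ± 0.11 (adjusted p = 0.18) there without hypoxia KO 4, and 0.12 ± 0.16 (adjusted p = 0.656) in normoxia. Other genes of peptide trimming and loading gave 1 of 10 higher in each comparison, Pdia3 both times, a share near the 11.4% and 9.54% of all genes that were higher in hypoxia and normoxia. Pdia3 encodes the disulfide isomerase ERp57 of the loading complex, and rose by 0.30 ± 0.08 (adjusted p = 0.0155) in hypoxia KO and by 0.32 ± 0.08 (adjusted p = 0.0131) in normoxia KO. The median of that list was 0.19 in hypoxia and 0.12 in normoxia.

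Psmb8 and Psmb9 encode catalytic subunits that replace Psmb5 and Psmb6 when the immunoproteasome forms. Psmb8 had 17.3 to 47.8 CPM in hypoxia KO against 14.3 to 16.5 CPM in hypoxia flox, and 17.4 to 30.9 CPM in normoxia KO against 14.9 to 25.9 CPM in normoxia flox. Hypoxia groups were apart, by less than 1 CPM, and normoxia groups overlapped. Its values were 0.68 ± 0.28 (adjusted p = 0.0937) in hypoxia and 0.27 ± 0.28 (adjusted p = 0.580) in normoxia. Psmb9 overlapped at both oxygen levels, with 17.7 to 61.5 CPM in hypoxia KO against 16.2 to 24.4 CPM in hypoxia flox, and 18.1 to 33.0 CPM in normoxia KO against 16.3 to 31.5 CPM in normoxia flox. Its difference was 0.49 ± 0.34 in hypoxia (adjusted p = 0.328) and 0.18 ± 0.33 in normoxia (adjusted p = 0.771). Without hypoxia KO 4 the hypoxia values were 0.29 for Psmb8 and 0.02 for Psmb9. The ratio of Psmb8 to Psmb5 CPM was 1.51 ± 0.75 (SD, n = 5) in hypoxia KO and 1.05 ± 0.08 (SD, n = 4) in hypoxia flox, with 2.86 in the highest KO library, and 1.30 ± 0.25 (SD, n = 5) in normoxia KO and 1.26 ± 0.26 (SD, n = 4) in normoxia flox.

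Among the other inducible proteasome genes (Psmb10, Psme1, Psme2 and Pomp) none of 4 passed in either comparison, and none of 5 constitutive proteasome genes passed in normoxia. In hypoxia 1 of those 5 rose, the catalytic subunit Psmb7, by 0.24 ± 0.08 (adjusted p = 0.0439). Of all genes, 22.3% passed and 11.4% were higher in hypoxia, and 16.6% passed in normoxia. With lists this short, these counts do not set the proteasome genes apart from all genes.

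Nlrc5 encodes the transactivator of class I genes. It had 21.7, 23.8, 23.96, 114 and 27.1 CPM in hypoxia KO 1 to 5, against 9.09, 22.8, 22.6 and 9.11 CPM in hypoxia flox 2 to 5. Hypoxia KO 1 fell within the flox range, hypoxia KO 4 was over 4 times the next library, and the hypoxia flox libraries split into 2 low and 2 higher values. In normoxia it had 26.2, 14.9, 22.1, 52.8 and 21.4 CPM in KO 1, 2, 4, 5 and 6, against 15.9, 45.3, 26.9 and 17.5 CPM in flox 1 to 4. Those groups overlapped throughout. The values were 1.41 ± 0.57 (adjusted p = 0.0893) in hypoxia, 0.60 ± 0.42 (adjusted p = 0.384) there without hypoxia KO 4, and 0.06 ± 0.55 (adjusted p = 0.958) in normoxia.

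Averaged over both oxygen levels, a comparison added after the data were seen, 5 of the 10 rose in KO while 34.0% of all genes passed and 17.0% rose. They were H2-D1 (1.07 ± 0.17, adjusted p = 0.000190), H2-T23 (0.64 ± 0.13, adjusted p = 0.00110), B2m (0.73 ± 0.20, adjusted p = 0.00908), H2-K1 (0.78 ± 0.25, adjusted p = 0.0258) and Tap1 (0.68 ± 0.25, adjusted p = 0.0495). Without hypoxia KO 4 the count was again 5, while 15.6% of all genes were higher. With the replicate block it was 3, while 15.4% of all genes were higher. The immediate early score as a covariate also gave 3, with 18.2% of all genes higher, and the sex signal gave 6, with 16%. With the leukocyte score as a covariate none of the 10 passed, while 11.8% of all genes did. H2-D1 then had 0.80 ± 0.28 (adjusted p = 0.0739), H2-T23 0.64 ± 0.21 (adjusted p = 0.0572) and H2-K1 0.01 ± 0.35 (adjusted p = 0.989). The leukocyte score itself moves with genotype, so in this fit their parts cannot be told apart.

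Oxygen was compared within each genotype. None of the 10 passed in KO, where 1.48% of all genes did, or in flox, where 2.81% did, and none passed in any alternative run, DESeq2 included. The lowest unadjusted p among the 10 was 0.203 (Tap1) in KO and 0.193 (Psmb8) in flox, so none was under 0.05. In KO the values of the 10 ran from -0.12 ± 0.17 (H2-T23) to 0.62 ± 0.52 (Nlrc5). All 10 were below 0 in KO when hypoxia KO 4 was left out, from -0.38 ± 0.17 (Psmb8) to -0.11 ± 0.10 (Tapbp), Nlrc5 being at -0.19 ± 0.40. In flox the values ran from -0.73 ± 0.58 (Nlrc5) to -0.08 ± 0.38 (Tap1). H2-D1 averaged 1547 ± 471 CPM in hypoxia KO and 1560 ± 543 CPM in normoxia KO (SD, n = 5 each), and 685 ± 32.4 CPM in hypoxia flox and 802 ± 79.4 CPM in normoxia flox (SD, n = 4 each). H2-D1 in flox was the 1 member whose oxygen groups were apart, with hypoxia lower, against 3.15% of all genes. All 10 flox values were below 0, and the comparisons share libraries with those of genotype.

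The test of whether the genotype difference changed with oxygen called none of the 10, while 0.439% of all genes passed, all lower. The differences of the 10 ran from 0.02 ± 0.25 (H2-T23) to 1.35 ± 0.78 (Nlrc5), with adjusted p values of 0.994 to 0.995 and no unadjusted p under 0.05, and DESeq2 called none. When hypoxia KO 4 was left out they ran from -0.18 ± 0.18 (H2-T23) to 0.54 ± 0.58 (Nlrc5), with H2-K1 at 0.12, B2m at 0.08 and Tap1 at -0.08, and none passed. That more members passed in hypoxia than in normoxia is therefore not shown to be a difference between the oxygen levels.

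By level per gene length (RPKM), B2m was the most abundant of the 10 in every group, and Nlrc5 the least. B2m averaged 1194 ± 564 RPKM in hypoxia KO and 698 ± 131 RPKM in hypoxia flox, and 1060 ± 275 RPKM in normoxia KO and 793 ± 180 RPKM in normoxia flox. H2-D1 followed, with 568 ± 151 and 589 ± 210 RPKM in hypoxia and normoxia KO, against 283 ± 14.6 and 320 ± 42.4 RPKM in hypoxia and normoxia flox. H2-K1 had 277 ± 178 and 226 ± 52.7 RPKM in hypoxia and normoxia KO, against 145 ± 41.2 and 175 ± 58.3 RPKM in hypoxia and normoxia flox. H2-T23 and Tapbp came next and differed by less than their spread in hypoxia flox and normoxia flox (44.1 ± 6.25 against 42.03 ± 3.53 RPKM, and 47.1 ± 8.76 against 47.0 ± 9.57 RPKM). Tap1, Tap2, Psmb8 and Psmb9 averaged between 4.8 and 16.0 RPKM, and Nlrc5 between 2.0 and 4.64 RPKM. Errors are SD, over 5 KO or 4 flox libraries.

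**Figure D4:**
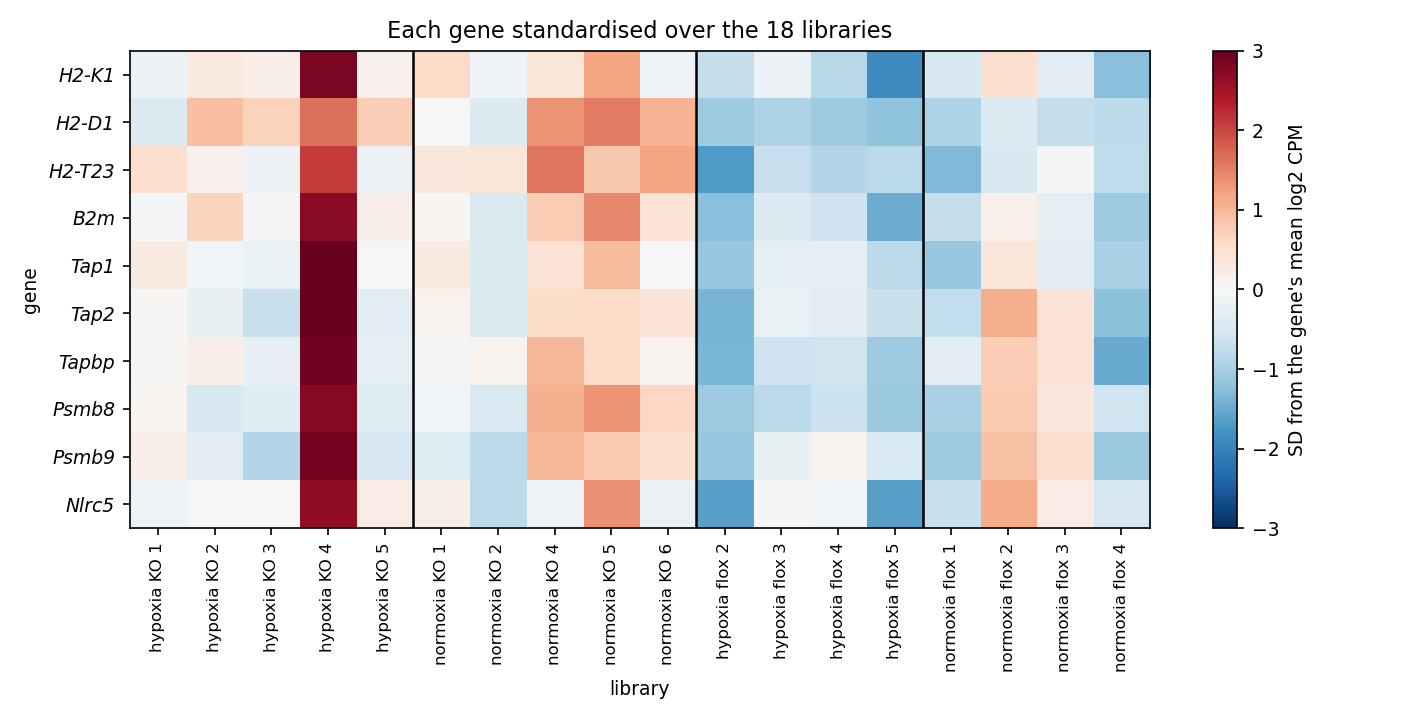
Each gene's log2 CPM as SDs from its own mean over the 18 libraries, with 1 row per gene and 1 column per library, and lines between the groups. Hypoxia KO 4 is the darkest red in every row (mean over the genes 2.69 SD), and hypoxia flox 2 and hypoxia flox 5 are the lowest libraries (-1.25 and -1.11 SD).

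The 10 genes moved together from library to library. Over the 18 libraries the Pearson correlation of log2 CPM between members had a median of 0.86 over 45 pairs, from 0.58 to 0.96, and a median of 0.87 after each group's mean was subtracted. These are descriptions: the libraries share depth and hypoxia KO 4. H2-D1 was the member least like the others, with a median of 0.71, or 0.59 after group means. Normoxia KO 5 was next to hypoxia KO 4 in the mean of the 10 genes, at 1.06 SD, and normoxia flox 2 was the highest flox library at 0.47 SD.

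The tested genes whose pattern was most like the mean of the 10 were Igtp (r = 0.97), H2-T22 (0.95), Wars (0.95), Irgm2 (0.94), Gbp2 (0.93), H2-Q6 (0.93), H2-Q4 (0.92) and Gbp10 (0.92), over 18 libraries. After group means were subtracted their r ran from 0.90 to 0.95. The mean of the 10 was 2.69 SD in hypoxia KO 4 and 1.06 SD in the next library, so that 1 library weighs heavily in both sets of r. These r values were not computed without hypoxia KO 4. The median r over 17156 genes was 0.01, and 62 had r above 0.8. Igtp, Irgm2, Gbp2 and Gbp10 encode GTPases of the interferon response, Wars a tryptophan tRNA synthetase, and the H2 genes nonclassical heavy chains. Igtp had 81.4, 77.0, 70.7, 332 and 81.4 CPM in hypoxia KO 1 to 5, against 37.8, 47.6, 54.6 and 40.8 CPM in hypoxia flox 2 to 5, and rose by 1.51 ± 0.42 (adjusted p = 0.0170), or by 0.78 ± 0.20 (adjusted p = 0.0129) without hypoxia KO 4. In normoxia Igtp had a value of 0.50 ± 0.40 (adjusted p = 0.460).

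Of 35 interferon-stimulated genes, 12 were higher and none lower in hypoxia KO, with a median of 0.45, while 11.4% of all genes were higher. Without hypoxia KO 4, 5 were higher (Ifit2, Gbp2, Igtp, Cxcl9 and Zbp1), at a median of 0.22, while 8.67% of all genes were. In normoxia KO 1 of the 35 rose, below the 9.54% of all genes, at a median of 0.18, and it was Ifit2 (0.62 ± 0.18, adjusted p = 0.0239). Ifit2, an inhibitor of viral translation, rose by 1.23 ± 0.18 in hypoxia KO (adjusted p = 0.000195), and Gbp2 by 1.47 ± 0.35 (adjusted p = 0.00727), or by 1.07 ± 0.16 and 0.90 ± 0.18 without hypoxia KO 4. Cxcl9, a T cell chemokine induced by interferon gamma, rose by 3.41 ± 0.93 (adjusted p = 0.0158), or by 1.89 ± 0.61 (adjusted p = 0.0459) without hypoxia KO 4, with 16.5 CPM in hypoxia KO 4, 0.714 to 2.19 CPM in the other hypoxia KO libraries and 0.294 to 0.594 CPM in hypoxia flox.

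Among 29 regulators of class I and interferon signalling, 5 were higher and 1 lower in hypoxia KO, and 2 were higher and 1 lower in normoxia KO. Counted in both directions, these shares were no larger than the 22.3% and 16.6% of all genes that passed. The share of higher regulators was above the 11.4% of all genes in hypoxia KO, and below the 9.54% in normoxia KO. In hypoxia without hypoxia KO 4, 4 were higher and 1 lower. For that fit, the share of all genes higher is given above with the interferon-stimulated genes. Jak1, a kinase of interferon receptors, rose by 0.56 ± 0.07 (adjusted p = 4.62e-05) in hypoxia KO and by 0.34 ± 0.07 (adjusted p = 0.00249) in normoxia KO, with groups apart at both: 157 to 202 CPM in hypoxia KO against 117 to 123 CPM in hypoxia flox, and 154 to 179 CPM in normoxia KO against 125 to 139 CPM in normoxia flox. Rela, the p65 subunit of NF-kB, rose by 0.68 ± 0.15 (adjusted p = 0.00510) in hypoxia KO and by 0.46 ± 0.15 (adjusted p = 0.0483) in normoxia KO, with 0.59 ± 0.15 in hypoxia without hypoxia KO 4. Ciita, the class II counterpart of Nlrc5, rose by 3.12 ± 0.67 (adjusted p = 0.00371) in hypoxia KO, and by 1.97 ± 0.33 (adjusted p = 0.000898) without hypoxia KO 4. Ifngr2, a chain of the interferon gamma receptor, rose by 0.50 ± 0.13 (adjusted p = 0.0103) in hypoxia KO. Irf8, a factor of myeloid cells, rose by 1.63 ± 0.49 (adjusted p = 0.0269) there, and had 1.28 ± 0.48 (adjusted p = 0.0816) without hypoxia KO 4. Tyk2, a kinase of interferon receptors, fell by 0.49 on the log2 scale (adjusted p = 0.0118) in hypoxia KO, and Rfx5, a factor of MHC promoters, fell by 0.32 (adjusted p = 0.0393) in normoxia KO. Irf1, a transcription factor induced by interferon gamma, did not pass in hypoxia (1.02 ± 0.57, adjusted p = 0.226).

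Of 16 further class I and class I-like heavy chains tested out of 22 listed, 3 were higher in hypoxia KO (Procr, H2-Q1 and Fcgrt) and 2 in normoxia KO (Procr and Fcgrt). The medians were 0.63 and 0.49, and the counts stand beside 11.4% and 9.54% of all genes being higher. Procr and H2-Q1 passed in hypoxia also without hypoxia KO 4. Procr, the endothelial protein C receptor, does not present peptides and rose by 1.40 ± 0.18 in both (adjusted p = 6.56e-05 in hypoxia and 5.11e-05 in normoxia). Fcgrt, the neonatal Fc receptor that pairs with B2m, rose by 0.40 ± 0.12 (adjusted p = 0.0288) and 0.52 ± 0.13 (adjusted p = 0.00866). H2-Q6 and H2-Q7, near-identical neighbours whose reads the counting could split, had 455 and 316 CPM in hypoxia KO 4, 22.1 to 53.5 and 14.7 to 39.8 CPM in the other hypoxia KO libraries, and 5.24 to 32.2 and 4.16 to 24.9 CPM in hypoxia flox.

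Hypoxia KO 4, whose class I genes were highest, also had the highest level of several immune transcripts. Ifng, the interferon gamma gene, had 16 counts there, against 0 to 4 counts in the other 17 libraries. Cd8a, a marker of the T cells that read class I, had 3.20 CPM there, 0.215 to 0.865 CPM in the other hypoxia KO libraries and 0 to 0.365 CPM in hypoxia flox. The sum of dendritic and neutrophil markers was 116 CPM there, with S100a8 at 29.2 CPM and S100a9 at 49.4 CPM, and at least 1 marker of that list stood at 0 in every library. In the other hypoxia KO libraries S100a9 had 0.108 to 2.59 CPM, and in hypoxia flox 0.168 to 0.684 CPM. Of 12 lymphocyte markers tested, 9 rose in hypoxia KO and 4 in normoxia KO, while 11.4% and 9.54% of all genes were higher. Without hypoxia KO 4, 6 of 11 rose in hypoxia, and the share of all genes higher in that fit is the one given above with the interferon-stimulated genes. With the leukocyte score as a covariate 0 of the 10 class I genes passed in either comparison, while 4.48% of all genes passed in hypoxia and 12.0% in normoxia. The log2 fold change of H2-T23 in that fit missed the threshold (0.66 in hypoxia, adjusted p = 0.226, and 0.63 in normoxia, adjusted p = 0.0746), H2-D1 had 0.82 (adjusted p = 0.263) and 0.78 (adjusted p = 0.0876), and H2-K1 had 0.12 in hypoxia (adjusted p = 0.909).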

How the data were processed

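The authors deposited read counts per Ensembl gene and RPKM (reads scaled to gene length and library total) for 18 libraries, made with HISAT2 and edgeR on GRCm39 per the submitters' processing notes; versions, counting tool and strand setting are not given in the sources used here. Per the labels' protocols, the libraries came from a stranded mRNA kit. From the counts, all genes were fitted with edgeR 4.0.16 (R 4.3.3): filterByExpr (17531 genes kept), TMM scaling, 1 model of 4 groups, the robust quasi-likelihood F test and Benjamini-Hochberg adjustment at 0.05. The SE is the log2 fold change over the square root of F. CPM use TMM-scaled totals, and log2 CPM add a prior count of 2. The deposited RPKM served for levels and, with limma 3.58.1, for an alternative. DESeq2 1.42.0 was another. Alternatives added covariates, among them a leukocyte score (mean log2 CPM of 8 pan-leukocyte genes), an immediate early gene score, the sex signal and a first principal component of non-endothelial markers. The fit was tested on simulated data. Symbols came from GENCODE M21 (91.3% of identifiers matched), and promoters from RefSeq (GRCm38.p6), searched on both strands. The 10 genes and all lists were chosen with earlier results of these data known. All 10 are named, with up to 4 passing genes per list and comparison and the 8 genes most alike in pattern. Further genes named (H2-Q6 and H2-Q7, Irf1, Irf8, Tyk2, Zbp1, the endothelial and mural genes, Ifng, Cd8a, Ptprc, S100a8 and S100a9), the list counts without hypoxia KO 4 and the ratios of paired genes were chosen after their values were seen, as was the genotype difference averaged over oxygen.

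Nothing in the labels says that replicates came from separate animals, so p values measure the spread between libraries. Equal replicate numbers were taken to pair the normoxia libraries, because deviations from the group means correlated across genes for all 3 shared numbers (r = 0.579, 0.294 and 0.847). In hypoxia they did not (r = 0.158, 0.0403, -0.183 and -0.339). Equal numbers across the oxygen levels gave r from -0.525 to 0.402. The 0.294 of number 2 lies within that range, and the 0.847 of number 4 joins the neuron-marker libraries. The pairing is therefore an assumption.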

Additional observations from a re-analysis of the deposited data

Results flagged for a closer look

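In hypoxia KO, 9 of the 10 genes had 1 library whose gap to the nearest other library was above Dixon's 95% critical value over the group's range, and in each it was hypoxia KO 4. H2-K1 stood at 1921 CPM there, against 645.8 CPM in the next library, and B2m at 2069 CPM, against 990.2 CPM. H2-T23 was at 287.3 CPM, with 182.9 CPM next. Tap1 was at 207.1 CPM, with 63.77 CPM next, and Tap2 at 109.6 CPM, with 55.90 CPM next. Tapbp had 287.1 CPM, with 175.4 CPM next. Psmb8 had 47.84 CPM, with 20.73 CPM next, and Psmb9 had 61.51 CPM, with 25.31 CPM next. Nlrc5 had 114.0 CPM, with 27.14 CPM next. H2-D1 was the member without such a gap. In all, 40 sets of 1 gene in 1 group were checked and 9 were set apart in this way. Chance sets apart about 1 group in 20, and the genes are not independent since all come from the same library.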

How the results depend on the processing

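Members passing in normoxia (main 2) came to 1 with library totals alone and with limma on log2 RPKM plus 0.1 or 1, and to 0 with the replicate block (over all libraries or over the shared numbers), the leukocyte score, the non-endothelial component, without the 2 neuron-marker libraries, and without the 3 libraries with Xist and Y-linked counts. Leaving out 1 library at a time gave 1 to 2 (1 when flox 1, flox 2 or KO 6 of normoxia was left out), while 2085 to 3645 of all genes passed. Members passing in hypoxia (main 4) came to 2 with library totals alone, no filter on low counts, only the 2 groups compared and the immediate early score, to 1 with limma on log2 RPKM plus 0.1 or 1 and with the replicate block over the shared numbers, and to 0 with the leukocyte score and the non-endothelial component. Leaving out 1 library gave 2 to 5 (2 when flox 2, flox 5 or KO 4 of hypoxia was left out), while 2664 to 4499 of all genes passed. Tap1 and Nlrc5 passed in hypoxia with DESeq2 (adjusted p = 0.0377 and 0.0345), Tap1 with the sex signal (adjusted p = 0.0480), and Tapbp without the neuron-marker libraries (adjusted p = 0.0467) or normoxia flox 4 (adjusted p = 0.0456). Over all genes the normoxia genotype count of 2905 became 1791 with the replicate block over all libraries and 717 over shared numbers, and the hypoxia count of 3916 became 785 with the leukocyte score and 1051 with the non-endothelial component. The oxygen counts were 492 in flox and 260 in KO, and became 813 and 592 with DESeq2 and 962 and 573 with the immediate early score. In KO the oxygen count was 107 with only the 2 groups, 115 with the leukocyte score, 164 with the non-endothelial component, 43 with the block over all libraries, 0 in each genotype with that over shared numbers, and 53 to 523 without 1 library. The interaction count of 77 became 144 with DESeq2, 42 with limma on log2 RPKM plus 1, 3 with the block and as low as 28 without 1 library. The median of all genes in hypoxia was -0.16 with library totals alone and -0.14 with limma on log2 RPKM plus 0.1. No member that passed changed sign, and the cause of each change was not tested. The numbers were not taken to pair the hypoxia libraries, so the block is given for them here only. Counting error is small for these genes, which had at least 186 counts in every library.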
